A study of Mus musculus with 6 samples.

Results

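Expression of 10 cardiac lineage transcription factor genes was measured in HL-1 cells, an immortalized mouse atrial cardiomyocyte line, after transfection with a locked nucleic acid (LNA) gapmer. The genes, Nkx2-5, Gata4, Gata6, Tbx3, Tbx5, Tbx20, Mef2a, Mef2c, Hand2, and Six4, were taken by their symbols from a list of cardiac transcription factors. All 10 were found among the 21269 genes of the table, and all 10 passed the filter on low values. Expression is given as the normalized count, the reads on a gene scaled for the library and rounded, and fold changes are on the scale of log2(normalized count + 1). Gapmers are synthetic oligonucleotides, DNA in the middle and LNA at both ends, and an RNA paired with one is cut by RNase H. LNA Malat1 is directed at the nuclear long noncoding RNA Malat1, and LNA Control is the control gapmer. Both groups were transfected with 50 nM of LNA 24 hours after seeding and collected 48 hours after transfection, and each had 3 libraries of total RNA. HL-1 is a single line that divides in culture, so the values describe these cells and not heart tissue, and nothing in the labels says whether the libraries came from separate cultures. If they did not, the p-values measure only technical spread.

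These factors act as a network in the forming heart. Nkx2-5, Gata4, Tbx5, Mef2c, and Hand2 bind DNA as different protein families, contact one another, and together switch on genes of contraction, conduction, and calcium handling. Within the T-box family, Tbx5 and Tbx20 act in working chamber muscle, whereas Tbx3 is a repressor of the working program in the sinus node and the conduction system. Six4 belongs to the sine oculis homeobox family, which is best known from skeletal muscle progenitors.

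Tbx3 and Six4 rose in LNA Malat1, whereas Gata4, Gata6, Tbx5, and Hand2 were moderately lower, and Nkx2-5, Tbx20, Mef2a, and Mef2c did not pass the test. A gene was called when its adjusted p (limma, two-sided, Benjamini-Hochberg over all 15650 genes tested) was at most 0.05 and its fold change at least 1.5. By this rule 2 of the 10 genes were called higher, against 8.0% of all genes tested, and 0 were called lower, against 2.92%. At the adjusted p alone, 2 were higher (14.3% of all genes) and 4 were lower (14.0% of all genes). In 2 genes every LNA Malat1 library lay above every LNA Control library (20.5% of all genes), in 4 every one lay below (20.8%), and in 4 the groups overlapped. Among the 543 tested genes that the table annotates as DNA-binding transcription factors, 5.89% were called higher and 4.24% lower, and at the adjusted p alone 14.5% were higher and 19.3% lower. The median log2 fold change of the 10 genes was -0.03, beside 0.02 for all genes tested and -0.01 for the transcription factor genes. At an unadjusted p under 0.05 the counts were the same, 2 higher and 4 lower, beside 3233 higher and 2997 lower of all 15650 genes. With voom weights on recovered reads, limma also called 2 higher and 0 lower, beside 1256 and 466 of all 15650 genes.

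**Figure D1:**
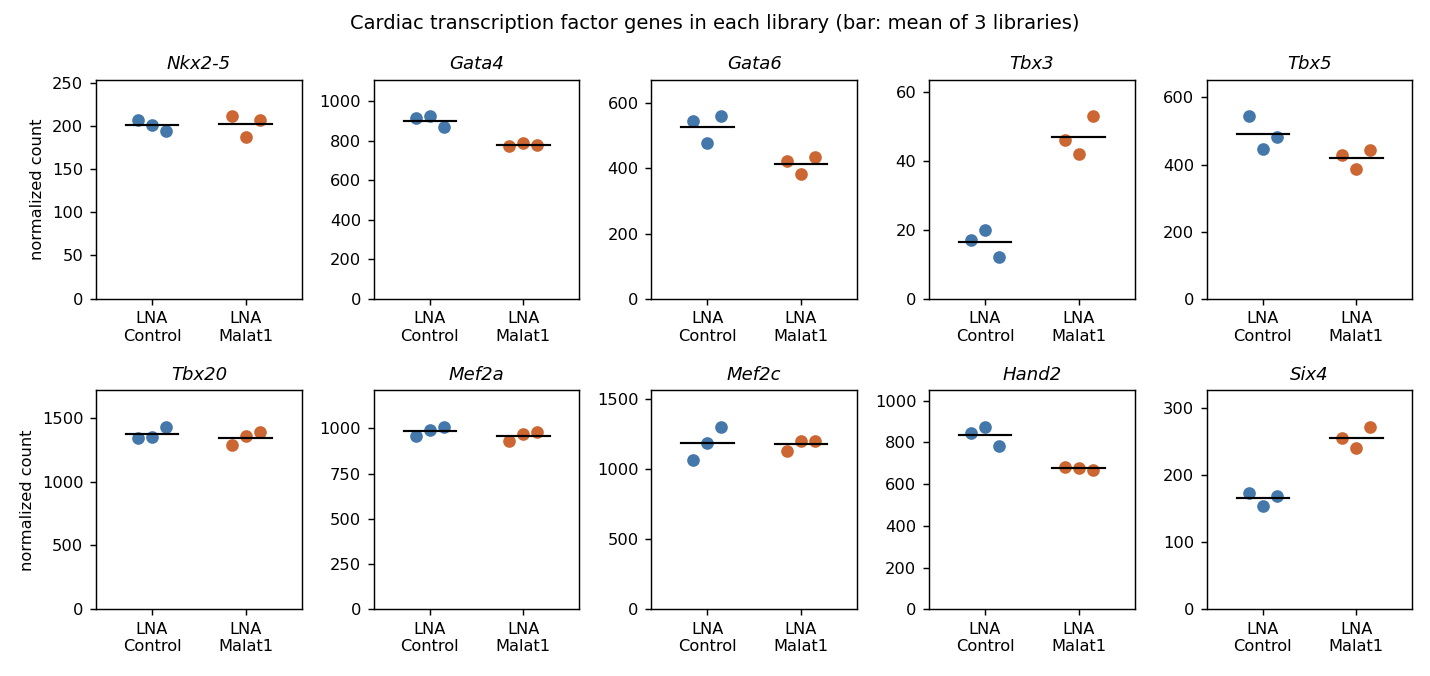
Normalized count (y axis, from 0, with its own range in each panel) of each of the 10 genes in the 3 LNA Control libraries (blue) and the 3 LNA Malat1 libraries (orange); each point is 1 library and the bar is the mean of 3. The groups are apart for Tbx3 and Six4 (LNA Malat1 above) and for Gata4, Gata6, Tbx5, and Hand2 (LNA Malat1 below), and they overlap in the other 4 panels.

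The promoters of a gene that rose, of one that fell, and of one that did not pass the test are shown first, since cardiac transcription factors are known to bind each other's regulatory DNA. RefSeq start sites on GRCm38.p6 gave windows for 6 of the 10 genes (Nkx2-5, Tbx20, Mef2a, Mef2c, Hand2, and Six4), but not for Gata4, Gata6, Tbx3, and Tbx5. Letters outside the exons of the gene itself are printed 5′ to 3′ on the strand of the gene, with capitals for a motif found by a search of both strands. The Six4 stretch (chr12:73113457-73113675, minus strand) ends just before the first annotated base of the gene and holds none of the 8 motifs searched. The Hand2 stretch (chr8:57320733-57320982, plus strand) has a GATA motif, searched only as AGATAA, in capitals. All bases of this stretch also lie in exons of Hand2os1, a noncoding gene on the opposite strand. The Mef2a stretch (chr7:67372851-67373108, minus strand) runs 8 bases past the start site and has a MEF2 motif in capitals.
Six4: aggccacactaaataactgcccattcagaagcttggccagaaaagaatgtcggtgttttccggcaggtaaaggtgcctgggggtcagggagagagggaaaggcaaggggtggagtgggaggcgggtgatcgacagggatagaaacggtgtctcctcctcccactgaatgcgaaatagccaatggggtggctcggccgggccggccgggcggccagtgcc
Hand2: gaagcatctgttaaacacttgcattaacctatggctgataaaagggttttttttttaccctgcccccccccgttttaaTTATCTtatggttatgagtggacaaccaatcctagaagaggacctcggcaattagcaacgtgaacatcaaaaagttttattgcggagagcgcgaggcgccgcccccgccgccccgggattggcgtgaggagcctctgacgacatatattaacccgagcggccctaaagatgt
Mef2a: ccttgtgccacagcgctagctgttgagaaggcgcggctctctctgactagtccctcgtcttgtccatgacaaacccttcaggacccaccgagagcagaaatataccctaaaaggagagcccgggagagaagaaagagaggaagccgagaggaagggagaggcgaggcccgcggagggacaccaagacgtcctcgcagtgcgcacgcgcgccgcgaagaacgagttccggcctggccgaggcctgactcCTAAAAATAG
Of the motifs searched, only the E-box, the site type of Hand2, was left in lower case. The AGATAA match of Hand2 starts at base -172 from the start site, and AGATAA occurs in 11.2% of the 32851 promoter windows of the same length. Other GATA letters, such as the TGATAA in the Hand2 stretch, were not searched. The MEF2 match of Mef2a starts at base -2, and 3.19% of all windows hold one. Hand2 also has 2 E-boxes (CANNTG, in 72.3% of all windows), at -246 and -235. The T-box motif searched was AGGTGT, which 13.7% of windows hold. For the NK2 family of Nkx2-5 it was TNAAGTG, which can overlap an E-box and is in 11.5%. The TATA box was searched as TATAAA, found in 13.6%, and the TEAD site as GGAATG, found in 14.7%. CArG boxes, the sites of serum response factor, are in 1.63%. The Tbx20 window also held none of the motifs, and the Nkx2-5 window held 1 E-box. Mef2c has 3 windows, which together held 1 T-box motif, 2 TATA motifs, 1 TEAD motif, and 3 E-boxes. These matches describe letters and no binding was measured.

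Malat1 itself checks the labels. Its normalized counts were 5051, 5197, and 4369 in the control libraries against 2833, 2792, and 2732 with LNA Malat1, and the value fell by 0.80 on the log2 scale (SE 0.07, adjusted p = 7.5e-06, limma), so that 57.2% of the control level remained. The reads on genes recovered from the table ranged from 4512253 to 5592464 per library. LNA Malat1 replicates 1 and 3 differed by no more than sampling noise over all genes (chi-square of 0.949 per gene), whereas the LNA Control pairs differed by between 1.842 and 4.228 per gene. LNA Malat1 replicates 1 and 3 were therefore counted as 1 sample in each mean ± SD (n = 2). This concerns the means, the SDs, and the percent that remained, and averaging 2 libraries can make an SD smaller. The main fit took all libraries separately. With replicates 1 and 3 as 1 sample in the fit, the adjusted p of Tbx5 was 0.082 (limma). The choice is not firm, since replicates 1 and 2 did not differ beyond sampling noise over all genes either (1.012 per gene). In the 1754 most read genes replicates 1 and 3 did differ (1.121 per gene, chi-square p = 0.00028). Of the markers of cardiomyocytes in general, Tnnt2, Actc1, and Ryr2 were expressed. The atrial markers were low, with a mean normalized count over the 6 libraries of 24.8 for Myl7, 41.2 for Myl4, and 1.8 for Gja5. Myh6 was listed at 7, 0, 7, 4, 1, and 4 in the 6 libraries, and Nppa and Sln were not analysed here.

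The T-box genes took different directions. Tbx3 (ENSMUSG00000018604, mm10 chr5:119670669-119684724, plus strand), the repressor of the working chamber program, was counted at 17, 20, and 12 in the LNA Control libraries and at 46, 42, and 53 in LNA Malat1. All LNA Malat1 libraries were above all LNA Control libraries, and the lowest LNA Malat1 value was above the highest LNA Control value by more than the range of either group. The means were 16.3 ± 4.0 (SD, n = 3) and 45.8 ± 5.3 (SD, n = 2), and the log2 fold change was 1.49 (SE 0.22, 95% interval 1.01 to 1.97, adjusted p = 0.00035, limma), or 2.81-fold. The level was low. The 3 LNA Control libraries together held 48 recovered reads (exact Poisson 95% interval 35.4 to 63.6) and the 3 LNA Malat1 libraries 149 (126.0 to 174.9), intervals that cover counting error only. At such levels rises were frequent in these libraries: among 3397 genes with a mean of 10 to below 50 normalized counts, 19.1% were called higher, the median log2 fold change was 0.27, and the 95th percentile was 1.52. Tbx3 thus lay just inside that percentile. Its antisense neighbor Tbx3os1, which shares 115 exonic bases with it, was counted at 0, 0, and 0 in the LNA Control libraries and at 0, 1, and 4 in LNA Malat1.

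Tbx5 (ENSMUSG00000018263, mm10 chr5:119832668-119885219, plus strand), an activator of atrial and conduction genes that lies next to Tbx3 on the chromosome, showed the opposite sign. It was counted at 544, 446, and 481 in the LNA Control libraries and at 427, 386, and 444 in LNA Malat1. The groups did not overlap, but the highest LNA Malat1 library and the lowest LNA Control library were nearly equal. The mean went from 490.3 ± 49.7 (SD, n = 3) in the LNA Control group to 410.8 ± 35.0 (SD, n = 2) with LNA Malat1, for a log2 fold change of -0.22 (SE 0.08, 95% interval -0.39 to -0.06, adjusted p = 0.045, limma). In 9 of 16 alternatives the adjusted p rose above 0.05, up to 0.19 without LNA Malat1 replicate 2, while the log2 fold change stayed between -0.29 and -0.15. Tbx20 (ENSMUSG00000031965, mm10 chr9:24718138-24774303, minus strand), which acts in chamber growth and is required in adult heart muscle, was counted at 1339, 1348, and 1427 in the LNA Control libraries and at 1284, 1355, and 1391 in LNA Malat1. These values overlapped, and the log2 fold change was -0.03 (SE 0.05, adjusted p = 0.72, limma). The 95% interval of the difference ran from -9.7% to 6.2% of the control level.

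The ratio of 2 genes within a library does not depend on how the libraries were scaled. For Tbx3 to Tbx5 the log2 ratio was -4.92, -4.41, and -5.21 in the LNA Control libraries and -3.19, -3.17, and -3.04 in LNA Malat1. The groups were apart, with a difference of 1.71 (exact permutation p = 0.1, two-sided, the smallest that 3 against 3 libraries allow). In normalized counts, Tbx3 was present at 0.0333 of the Tbx5 count in the LNA Control libraries and at 0.112 in LNA Malat1. The ratio of Tbx5 to Tbx20, chosen after its values were seen, differed by -0.19 with overlapping groups (exact permutation p = 0.2).

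Six4 (ENSMUSG00000034460, mm10 chr12:73099609-73113456, minus strand) was the other gene called higher. It was counted at 173, 154, and 169 in the LNA Control libraries and at 256, 240, and 272 in LNA Malat1. Each LNA Malat1 library was above each LNA Control library, and the spread within the groups was far smaller than the gap between them. The mean rose from 165.3 ± 10.0 (SD, n = 3) in the LNA Control group to 252.0 ± 17.0 (SD, n = 2) with LNA Malat1, for a log2 fold change of 0.63 (SE 0.08, 95% interval 0.46 to 0.79, adjusted p = 7.2e-05, limma), or 1.54-fold. Among 7285 genes with a mean of 50 to below 500, 4.24% were called higher and the 95th percentile of the log2 fold change was 0.55. Six4 lay close to the fold threshold: without LNA Control replicate 2 or without LNA Malat1 replicate 3 its log2 fold change was 0.58, just under 1.5-fold, although its adjusted p was at most 0.0015 in all 16 alternatives.

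Six5, a relative of Six4 that is known from a gene region affected in myotonic dystrophy, fell from 104.0 ± 6.2 (SD, n = 3) in the LNA Control group to 67.0 ± 5.7 (SD, n = 2) with LNA Malat1, for a log2 fold change of -0.60 (adjusted p = 0.0016, limma). The within-library ratio was separate between the groups. For Six4 to Six5 the log2 ratio was 0.66, 0.66, and 0.67 in the LNA Control libraries and 1.90, 1.91, and 1.86 in LNA Malat1. The difference was 1.23 (exact permutation p = 0.1, the smallest possible), for a ratio chosen after its values were seen. Markers of skeletal muscle, where Six4 is best known, were counted beside it: 5 of the 12 listed were tested, of which Tnnt3 and Casq1 were called higher and Pax3 lower. Tnnt3 and Casq1 had means of 44.7 and 12.7, in the range of 10 to below 50 where 19.1% of genes were called higher. The 95th percentile of the log2 fold change in that range was 1.52. Tnnt3 (1.66) was past it and Casq1 (1.51) was just below it. The summed normalized count of the 6 listed genes found in the table, of which Pax7 was too low to test, was 265 to 292 in LNA Control and 273 to 281 in LNA Malat1. Myod1, Myf5, Myog, and Myf6 were not analysed here, and the part of this cell program in the Six4 result was not tested.

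**Figure D2:**
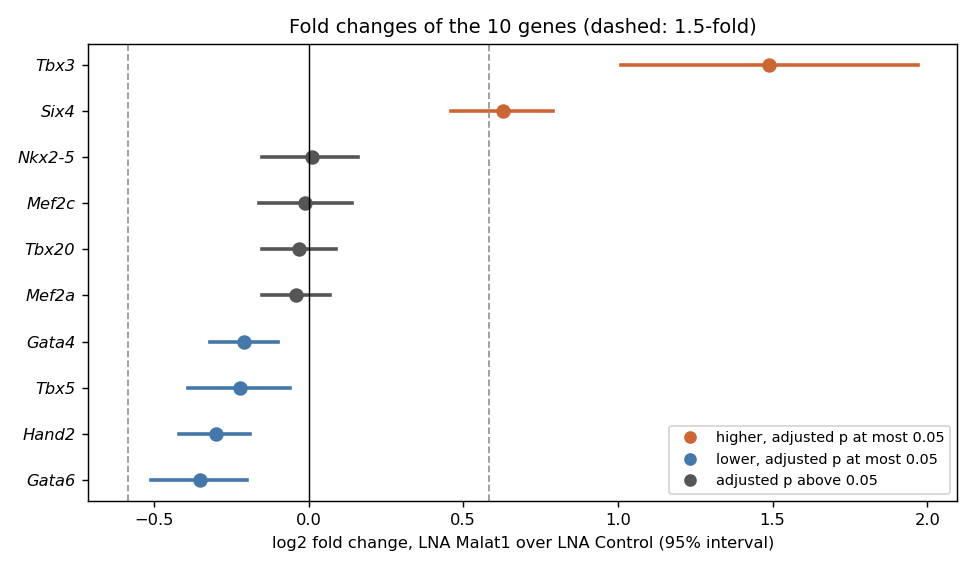
Log2 fold change of LNA Malat1 over LNA Control (x axis) for the 10 genes, with points for the limma estimate and lines for its 95% interval; dashed lines mark 1.5-fold. Tbx3 (1.49) and Six4 (0.63) are past the upper line, the 4 lower genes lie between -0.35 and -0.21, and the intervals of the other 4 include 0.

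Both GATA zinc finger factors were lower. Gata4 (ENSMUSG00000021944, mm10 chr14:63198922-63271692, minus strand), a core activator of cardiac genes, was counted at 912, 923, and 866 in the LNA Control libraries and at 770, 788, and 778 in LNA Malat1. The LNA Malat1 libraries were close to each other and all below the lowest LNA Control library. The mean went from 900.3 ± 30.2 (SD, n = 3) in the LNA Control group to 781.0 ± 9.9 (SD, n = 2) with LNA Malat1, for a log2 fold change of -0.21 (SE 0.05, 95% interval -0.32 to -0.10, adjusted p = 0.0079, limma). Gata6 (ENSMUSG00000005836, mm10 chr18:11052064-11085635, plus strand), which overlaps with Gata4 in function during heart formation, was counted at 546, 478, and 560 in the LNA Control libraries and at 422, 382, and 434 in LNA Malat1. Again no LNA Malat1 library reached the lowest LNA Control library. The mean went from 528.0 ± 43.9 (SD, n = 3) in the LNA Control group to 405.0 ± 32.5 (SD, n = 2) with LNA Malat1, for a log2 fold change of -0.35 (SE 0.07, 95% interval -0.51 to -0.20, adjusted p = 0.0028, limma), the most negative of the 10 genes. The log2 ratio of Gata6 to Gata4 differed by -0.14 between the groups, which overlapped (exact permutation p = 0.3), so a difference between these falls was not shown.

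Hand2 (ENSMUSG00000038193, mm10 chr8:57320983-57324633, plus strand), a helix-loop-helix factor of the right ventricle and outflow tract, was counted at 847, 874, and 784 in the LNA Control libraries and at 682, 677, and 668 in LNA Malat1. The 3 LNA Malat1 values were close to each other and all below the LNA Control values. The mean went from 835.0 ± 46.2 (SD, n = 3) in the LNA Control group to 676.0 ± 1.4 (SD, n = 2) with LNA Malat1, for a log2 fold change of -0.30 (SE 0.05, 95% interval -0.42 to -0.19, adjusted p = 0.0013, limma). Its antisense neighbor Hand2os1, whose exons cover the stretch printed above, did not pass the test. It was counted at 1385, 1439, and 1632 in the LNA Control libraries and at 1510, 1550, and 1603 in LNA Malat1, with a log2 fold change of 0.07 (adjusted p = 0.46, limma). For Hand2 to Hand2os1 the log2 ratio was -0.71, -0.72, and -1.06 in the LNA Control libraries and -1.15, -1.19, and -1.26 in LNA Malat1, a difference of -0.37 with separate groups (exact permutation p = 0.1, the smallest possible, for a ratio chosen after its values were seen). The 2 genes share 461 exonic bases, which are 19.6% of the Hand2 exons, and reads that overlapped multiple genes were left out by the authors. Whether strand was used in counting is not given in the sources used here, so reads of the shared bases may be missing from both.

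Gata4, Gata6, and Hand2 passed the adjusted p in all 16 alternatives, with log2 fold changes from -0.24 to -0.16, from -0.42 to -0.29, and from -0.35 to -0.25. None of the 4 lower genes reached 1.5-fold under any alternative. Among 3056 genes with a mean of 500 to below 2000, the 5th percentile of the log2 fold change was -0.43 and the lower quartile was -0.15. Gata4 and Hand2 thus lay below the lower quartile of genes at their level but above the 5th percentile. Fibroblasts also express GATA and HAND factors, and their markers were read beside these genes. Of 8 listed fibroblast markers 4 were tested, and all 4 had negative log2 fold changes, with a median of -0.28. Col3a1 (-0.33) was lower at the adjusted p, and 3 had an unadjusted p under 0.05, with Pdgfra (-0.42) and Col1a1 (-0.23) the others. The summed normalized count of the 5 listed genes found in the table was 5304 to 5911 in LNA Control and 4683 to 4817 in LNA Malat1. Col1a2 was listed at 0 or 1 in each library and Tcf21, Dcn, and Lum were not analysed here. The part of these genes in the result was not tested. In RNA from a whole culture, fewer cells of a type and less RNA per cell cannot be told apart.

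Nkx2-5, Mef2a, and Mef2c did not pass the test, and the groups overlapped for each of them. Nkx2-5 (ENSMUSG00000015579, mm10 chr17:26838664-26845009, minus strand), the homeobox factor that marks cardiac progenitors, was counted at 207, 201, and 194 in the LNA Control libraries and at 211, 187, and 207 in LNA Malat1. The LNA Malat1 libraries held both the highest and the lowest of the 6 values. The log2 fold change was 0.01 (SE 0.07, adjusted p = 0.96, limma), and the 95% interval of the difference ran from -10.0% to 12.0% of the control level. Mef2a (ENSMUSG00000030557, mm10 chr7:67231163-67372858, minus strand) was counted at 956, 989, and 1007 in the LNA Control libraries and at 931, 969, and 978 in LNA Malat1, with a log2 fold change of -0.04 (SE 0.05, adjusted p = 0.62, limma) and an interval from -9.6% to 5.1%. Mef2c (ENSMUSG00000005583, mm10 chr13:83504034-83667080, plus strand), the MEF2 gene of early heart formation, was counted at 1066, 1189, and 1303 in the LNA Control libraries and at 1130, 1202, and 1201 in LNA Malat1, with a log2 fold change of -0.01 (SE 0.07, adjusted p = 0.96, limma) and an interval from -10.2% to 10.5%. All 3 LNA Malat1 values of Mef2c fell inside the LNA Control range. The log2 ratio of Mef2c to Mef2a differed by 0.03 (exact permutation p = 0.7). Differences within these intervals were not excluded with 3 libraries in each group, so equality was not shown. Mef2a shares 302 exonic bases with Lysmd4 on the other strand, which are 2.1% of its exons, and Gata6 shares 93 (1.4%) with Gata6os.

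The ratio to Mef2a puts the falls of Gata4 and Hand2 on a scale that library size does not touch. The log2 ratio of Gata4 to Mef2a differed by -0.17 and that of Hand2 to Mef2a by -0.27, each with separate groups (exact permutation p = 0.1, the smallest possible, for ratios chosen after their values were seen). Mef2a itself had a log2 fold change of -0.04, so these ratios restate the fitted falls and are not separate support. The closest libraries of the LNA Control and LNA Malat1 groups were at -0.22 and -0.27 for Gata4 and at -0.36 and -0.45 for Hand2. No scaling tried moved the median log2 fold change of all genes by more than 0.1.

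**Figure D3:**
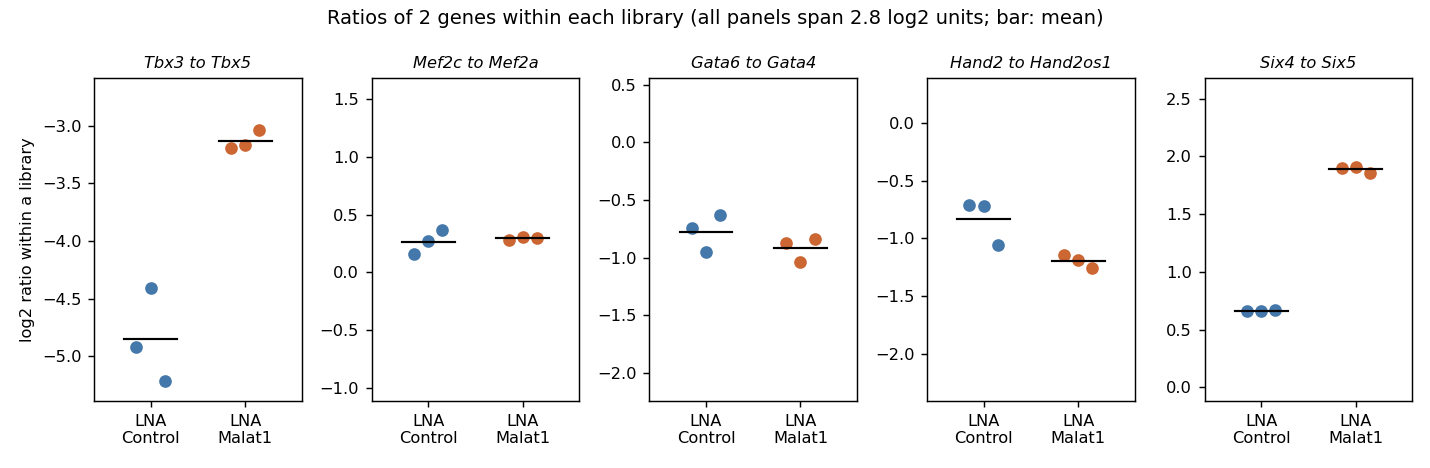
Log2 ratio of the normalized counts of 2 genes within each library (y axis, every panel spanning 2.8 units) for LNA Control (blue) and LNA Malat1 (orange); points are libraries and bars are means of 3. The groups are apart for Tbx3 to Tbx5 (difference 1.71), Hand2 to Hand2os1 (-0.37), and Six4 to Six5 (1.23), and overlap for Mef2c to Mef2a (0.03) and Gata6 to Gata4 (-0.14).

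Levels of different genes were compared as normalized counts per kilobase of annotated exon. In LNA Control, Hand2 was the most abundant at 355.2 ± 19.6 (SD, n = 3) per kilobase, followed by Gata4 at 230.6 ± 7.7 (SD, n = 3). Nkx2-5 (116.7), Tbx20 (114.3), and Tbx5 (104.9) came next with overlapping libraries, so their order is not resolved. Gata6 (81.1) overlapped with Mef2c (75.5), and Mef2c with Mef2a (67.0). Six4 at 15.2 ± 0.9 (SD, n = 3) and Tbx3 at 2.5 ± 0.6 (SD, n = 3) were the lowest 2 and were apart from all others. The 2 genes that rose were thus the 2 with the lowest level. In LNA Malat1 the order of the other genes was the same, and Gata6, at 62.2 per kilobase, was below Mef2c (75.3) with libraries apart and overlapped with Mef2a (65.5), so its place beside Mef2a is not resolved. Annotated exons include long untranslated regions that a cell may not use, so such levels are approximate.

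**Figure D4:**
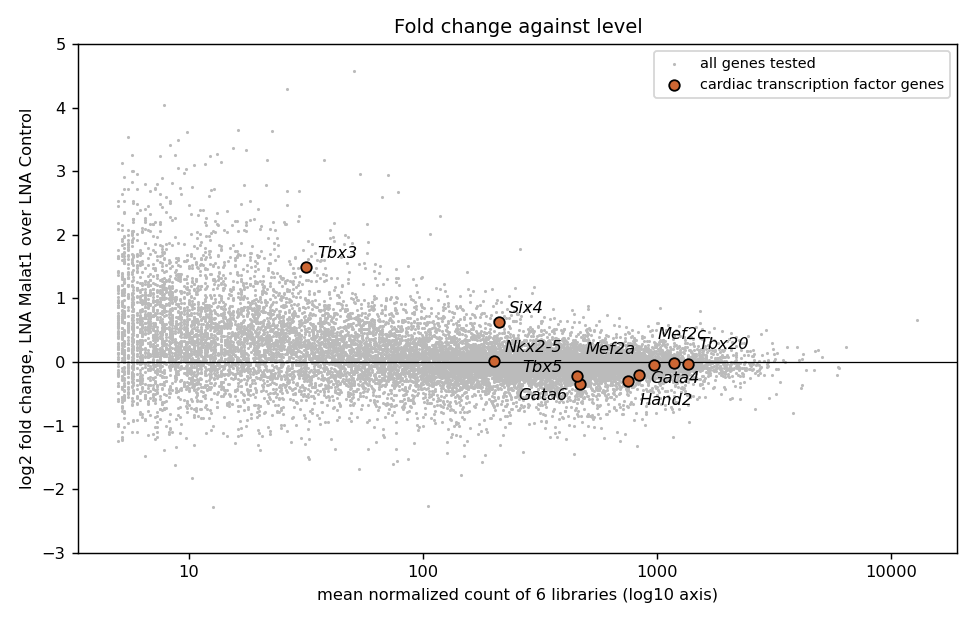
Log2 fold change of LNA Malat1 over LNA Control (y axis, cut at -3 and 5) against the mean normalized count of the 6 libraries (x axis, log10) for all 15650 genes tested (gray) and the 10 cardiac transcription factor genes (orange, named). Tbx3 sits among low genes, where the cloud is wide and tilted upward, Six4 is at the upper edge of the cloud at its level, and the lower genes lie inside it.

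Relatives of the 10 factors were read from a list of 27 paralogs, of which 11 were tested. Of these 1 was called higher and 1 lower, and at the adjusted p alone 1 was higher and 2 were lower, with a median log2 fold change of 0.11. Mef2b, the least abundant MEF2 gene, rose from 6.7 ± 2.5 (SD, n = 3) in the LNA Control group to 16.2 ± 3.9 (SD, n = 2) with LNA Malat1, for a log2 fold change of 1.13 (adjusted p = 0.027, limma). Six5 fell, as given above. Gata5, the third cardiac GATA factor, was counted at 535, 465, and 453 in the LNA Control libraries and at 386, 390, and 425 in LNA Malat1. Its log2 fold change of -0.27 (adjusted p = 0.012, limma) lay between those of Gata4 and Gata6. Mef2d, the most abundant of the paralogs, had a log2 fold change of -0.10 (adjusted p = 0.56, limma).

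Other transcription factors of chamber and conduction identity made a list of 30 genes, of which 20 were tested. In this list 1 gene was called higher and 1 lower, and at the adjusted p alone 3 were higher and 6 were lower, with a median of -0.08. Hey2, a Notch target that restricts the atrial program in ventricular muscle, was counted at 16, 21, and 18 in the LNA Control libraries and at 51, 53, and 47 in LNA Malat1, with a log2 fold change of 1.42 (adjusted p = 0.00013, limma). Its mean was 34.3, and among genes of 10 to below 50 the 95th percentile of the log2 fold change was 1.52. Tead1, the Hippo pathway factor, was lower at -0.36 (adjusted p = 0.013, limma), and Meis2, a homeobox factor, had -0.07 (adjusted p = 0.47, limma). Irx3 and Irx5, homeobox factors of ventricular conduction, were higher at the adjusted p, with log2 fold changes of 0.56 and 0.48. Irx3 had a mean of 31.2, in the same low range, where the upper quartile was 0.65.

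Cofactors and upstream regulators made a list of 31 genes, of which 25 were tested. None was called in either direction, with 1 higher and 6 lower at the adjusted p alone (limma), 2 higher and 9 lower at an unadjusted p under 0.05, 0 called with voom weights, and a median of -0.08. Zfpm2, the friend-of-GATA cofactor that binds Gata4 and Gata6, was counted at 713, 760, and 811 in the LNA Control libraries and at 521, 531, and 572 in LNA Malat1. All LNA Malat1 libraries were below all LNA Control libraries, and the log2 fold change was -0.49 (SE 0.06, adjusted p = 9e-05, limma). Hdac5, a repressor of MEF2 activity, and Mapk7, a kinase that activates MEF2, were lower at -0.35 and -0.44. Nfatc1, a calcineurin-dependent factor that acts with Gata4, was higher at 0.45 (adjusted p = 0.0092, limma). The most abundant members, Nfatc3 (-0.05), Ep300 (0.19), and Crebbp (0.07), did not pass the adjusted p.

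Known target genes of these factors made a list of 34 genes, of which 25 were tested. Of these 4 were called higher and 3 lower, and at the adjusted p alone 9 were higher and 6 were lower, with a median log2 fold change of 0.00. Gja1, the connexin 43 gene that Tbx3 is known to repress, was counted at 21, 13, and 18 in the LNA Control libraries and at 68, 59, and 72 in LNA Malat1, with a log2 fold change of 1.90 (adjusted p = 2.6e-05, limma). Ckm, the muscle creatine kinase and a MEF2 target, was counted at 3, 0, and 1 against 11, 11, and 9. The mean of Ckm over the 6 libraries was 5.8, near the filter of 5. Its LNA Control mean was 1.3, so Ckm passed the filter only through the LNA Malat1 libraries, and its call carries little weight. The contractile genes Myl2 and Tnnc1 were each higher by 0.66. Tnnc1 had a mean of 40.5, and among genes of 10 to below 50 the upper quartile of the log2 fold change was 0.65. Among the genes called lower, Hcn4, the pacemaker channel, went from 684.3 ± 42.5 (SD, n = 3) in the LNA Control group to 423.8 ± 12.4 (SD, n = 2) with LNA Malat1, for a log2 fold change of -0.68 (adjusted p = 1.1e-05, limma), and Cacna1g, the T-type calcium channel of nodal cells, fell by 0.90 on the log2 scale (adjusted p = 1.1e-05, limma). Corin, the protease that activates atrial natriuretic peptide, fell by 1.08 on the log2 scale. The most abundant targets, Atp2a2 (-0.17), Ryr2 (-0.12), and Slc8a1 (-0.25), which handle calcium, did not pass the adjusted p. Nppb, the brain natriuretic peptide gene and a Gata4 target, was listed at 0, 0, and 0 in the LNA Control libraries and at 10, 6, and 11 in LNA Malat1 and stayed under the filter on low values.

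Genes of the sinus node, where Tbx3 acts, made a list of 12, of which 10 were tested, Tbx3 among them. Only Tbx3 was called higher by limma, and Hcn4 and Cacna1g were called lower. Shox2, a nodal factor that acts upstream of Tbx3, was counted at 346, 327, and 326 against 368, 382, and 342 (log2 fold change 0.13, adjusted p = 0.14). The list median was -0.28. Of 12 working atrium genes 7 were tested, with Gja1 called higher and 0 called lower by limma with or without voom weights, 2 lower at an unadjusted p under 0.05, and a median of -0.11.

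**Figure D5:**
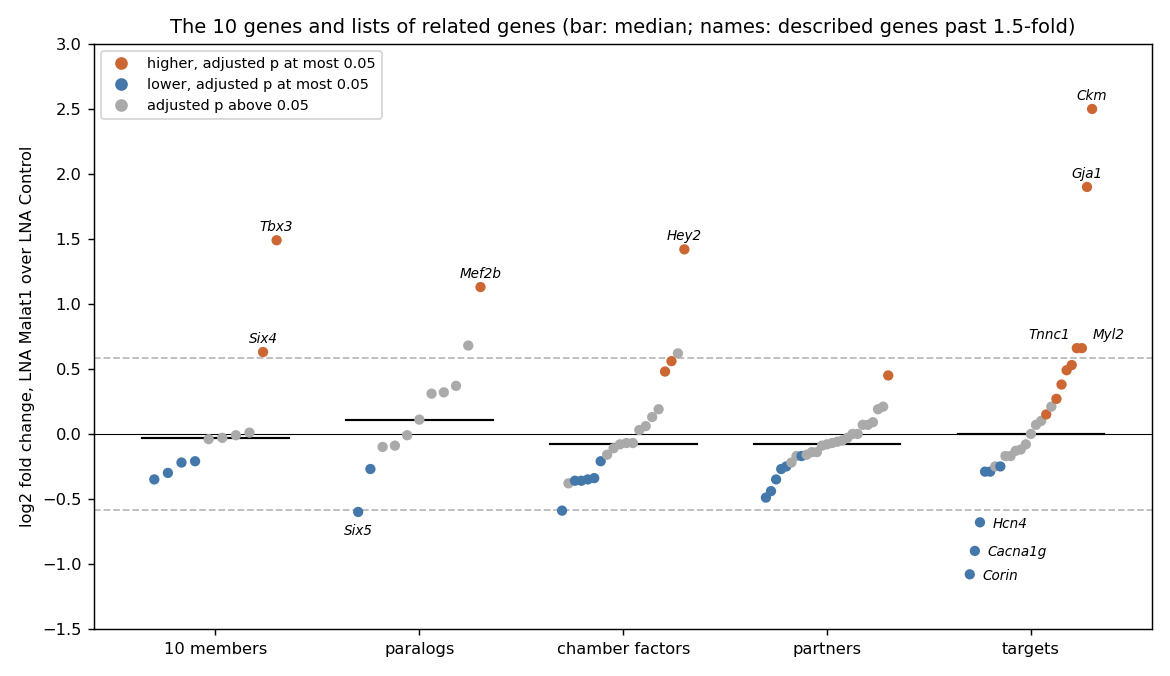
Log2 fold change of LNA Malat1 over LNA Control (y axis) for each tested gene of 5 lists (x axis): the 10 genes, their paralogs (11), chamber factors (20), partners (25), and targets (25). Colors give the direction of genes past the adjusted p, bars are medians, dashed lines are 1.5-fold, and names mark genes described in the text that are also past 1.5-fold; calls in both directions appear in the paralogs, chamber factors, and targets, and no partner is named.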

How the data were processed

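RNA of 6 HL-1 libraries was sequenced, 3 each from LNA Control and LNA Malat1. By the study's methods and the submitters' processing notes, reads were trimmed (Trimmomatic 0.39), aligned to mm10 (STAR 2.7.7a), and counted on exons per gene (featureCounts 1.6.5), and reads with more than 1 gene or position were dropped. What the authors deposited is a score: each count was divided by a factor of its library and then rounded. It is called a normalized count here. Because of the rounding, tests made for raw counts were not the main test. The factors were recovered from the gaps that rounding leaves, and reads are approximate.

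A mean normalized count of 5 or more was required, and testing used log2(normalized count + 1) with limma 3.58.1 (R 4.3.3; lmFit, eBayes with trend, two-sided, Benjamini-Hochberg). Fold changes on this scale understate the change of low genes. Calls needed both an adjusted p up to 0.05 and a 1.5-fold change. The code was tested on simulated data. LNA Malat1 replicates 1 and 3 entered the fit separately and each mean ± SD as 1 sample. Ratios within a library were compared by exact permutation (scipy 1.17.1). Exons are those of GENCODE M21, and promoter windows those of RefSeq (250 bases before to 50 after a start site).

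The members and the lists (paralogs, chamber factors, partners, targets, nodal and working atrium genes, cardiomyocyte, fibroblast, endothelial, smooth muscle, skeletal muscle, and macrophage markers, and RNA handling genes) were chosen with earlier results of these data known. The lists come from general knowledge and share genes. All 10 factors were named, with Malat1, overlapping genes, and, of the first 6 lists, called genes and the 3 most abundant. Some genes that this rule names are not reported here. Other genes named were chosen after their values were seen. Alternatives were the replicate number as a block, other pseudocounts, scalings, filters, and fold minimums, voom weights on recovered reads, replicates 1 and 3 as 1 sample, and each library left out.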

Additional observations from a re-analysis of the deposited data

How the results depend on the processing

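The log2 fold changes of Tbx3, Six4, Gata4, Gata6, and Hand2 kept their direction and their side of the adjusted p in every alternative that could be computed, and that of Tbx5 in 7 of 16. Tbx3 has no value at a mean of at least 50, and its log2 fold change was between 1.25 and 1.64 in the other 15. The number of cardiac transcription factor genes called higher was 1 at a mean of at least 50 and 1 with a fold change of at least 2, and between 1 and 2 without each library, and the number called lower was 4 with no fold change minimum. Over all genes, 748 were called higher and 718 lower after quantile normalization, 317 higher at a mean of at least 50, 831 higher with LNA Malat1 replicates 1 and 3 as 1 sample, 2231 higher and 2195 lower with no fold change minimum, and 742 higher and 99 lower with a fold change of at least 2. The fold minimums change the counts by construction, and for the scaling the cause was not tested. Without each library in turn, between 810 and 1582 were called higher, with 810 without LNA Malat1 replicate 1 and 812 without LNA Malat1 replicate 3. The log2 ratio of Mef2c to Mef2a was -0.02 without LNA Control replicate 1, and between -0.02 and 0.08 without each library. The replicate numbers were not taken to pair the libraries in the main fit. Deviations of same-numbered libraries from their group means correlated weakly, by 0.086, 0.182, and 0.083 over 10490 genes. Each library still correlated best with its own number, so a pairing was not excluded. With the replicate block, 1297 genes were called higher and 442 lower, 1647 of the 1709 called genes remained, and 2 cardiac transcription factor genes were called higher and 0 lower. Depth limits Tbx3 most, with 48 reads in LNA Control.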

Other observations

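Genes that respond to transfection and stress formed a list of 10 RNA handling genes, all tested. Of these 2 were called higher and 0 lower by limma with or without voom weights, and at the adjusted p alone 4 were higher and 2 were lower. The immediate early genes Fos (log2 fold change 1.32, adjusted p = 0.001, limma) and Egr1 (0.93, adjusted p = 5.7e-05, limma) were called higher. Fos had a mean of 40.7, in the range of 10 to below 50 where 19.1% of genes were called higher. Mdm2 and Cdkn1a, targets of p53, were each higher by 0.35, Trib3 and Ddit3, of the integrated stress response, were at -0.43 and -0.22, and the interferon-induced Ifit1 (0.10) and Isg15 (-0.04) did not pass the adjusted p. The summed normalized count of the list was 2945 to 3265 in LNA Control and 3459 to 3706 in LNA Malat1.

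Among cardiomyocyte markers, 10 of 13 were tested, 3 were called higher, and 0 were called lower by limma with or without voom weights. At the adjusted p alone 4 were higher and 1, Pln, was lower (-0.25, adjusted p = 0.0037, limma). Ttn, the giant sarcomere spring, was counted at 8524, 9786, and 12110 in the LNA Control libraries and at 16176, 15112, and 16320 in LNA Malat1, with a log2 fold change of 0.66 (adjusted p = 0.0013, limma). Actn2 (0.71) and Mybpc3 (0.67) were also called higher, whereas Actc1 (0.00) and Tnni3 (-0.13) did not pass the adjusted p. Of other cell types, 6 smooth muscle markers were tested, Pdgfrb was called higher, and 3 were higher at the adjusted p alone, with Cnn1 (0.40) and Smtn (0.33). Myh11 (-0.60), Acta2 (-0.05), and Tagln (0.15) did not pass the adjusted p. Pdgfrb had a mean of 22.7 over the 6 libraries, in the range of 10 to below 50 where 19.1% of genes were called higher. Of 6 listed macrophage markers only 2, Csf1r and Cd68, were found in the table, and both were tested. Both were called higher, at summed normalized counts of 32 to 36 in LNA Control and 54 to 81 in LNA Malat1. The means of Csf1r and Cd68 were also in the range of 10 to below 50, where 19.1% of genes were called higher. Neither of 2 endothelial markers passed, although 1 had an unadjusted p under 0.05 (the 3 listed genes found in the table, with the untested Vwf, summed to 22 to 31 in LNA Control and 36 to 37 in LNA Malat1). The part of these cell types in the results was not tested.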
